A study of Homo sapiens with 9 samples.

Results

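RNA sequencing libraries of GBM43 cells from MK801-treated devices were compared with libraries of the invasive cells of control devices. They were 6 of the 9 libraries of the study, 3 in each of the 2 groups, chosen by their labels alone. GBM43 is a glioblastoma cell line, grown here in serum-containing medium and seeded into invasion devices of hyaluronic acid gel. Control devices received the vehicle DMSO according to the treatment protocol, and culture medium according to the description of the design. Their invasive cells were cut away from the non-invasive core with a scalpel. Treated devices received MK801 at 50 µM. Too few of their cells had invaded to be cut away, so core and invading cells were sequenced together. Treatment and the mixture of core with invading cells therefore differ between the groups at the same time and cannot be told apart. The study as a whole asks whether glutamate outside the cells drives invasion through NMDA receptors, and all samples come from 1 cell line.

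NMDA receptors are glutamate-gated cation channels that admit calcium and need the GRIN1 subunit, and MK801 lodges in their open pore. Cells that invade a gel lay down and remodel extracellular matrix. They secrete fibrillar and network-forming collagens, fibronectin and laminins, trim and crosslink the collagens with secreted enzymes, and cut matrix with metalloproteinases. Cells that divide transcribe replication genes before DNA synthesis, largely through E2F factors, and mitotic genes before division, largely through complexes that bind the cell cycle genes homology region (CHR) and CCAAT boxes of promoters.

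Values are FPKM, the fragments per kilobase of gene scaled to library size, as the authors deposited them. Differences are MK801 minus invasive on the log2(FPKM + 1) scale, which understates differences of weakly expressed genes, and "fold" is the ratio of group mean FPKM. Libraries are given in the order of replicates 1, 2 and 3, and where 3 values are set against 3 others, the MK801 libraries come first. Whether equal numbers mark libraries handled together is not given in the labels, and the main fit did not pair them. The invasive libraries held 16.7, 22.8 and 18.7 M fragments in genes and the MK801 libraries 18.4, 16.5 and 54.4 M. At an equal depth of 16.5 M fragments, 18307, 15992 and 19198 genes were detected in the invasive and 15174, 19096 and 21614 in the MK801 libraries. Of 58735 genes, 10962 had at least 1 FPKM in 3 or more of the 6 libraries and were tested. A gene under 1 FPKM throughout 1 group passes only if every library of the other reaches it, so its groups cannot overlap. Of the genes named below, this holds for COL3A1, CEMIP, MCM10, ANKRD1, BCL2A1, BMF, LUM, AC119396.2, MIR6775 and SNORA71B. The labels do not tell whether replicates are separate cultures, and the spread that the p-values measure may thus be technical. In bulk RNA, fewer cells of a type and less RNA per cell cannot be told apart.

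Genes of collagens and other matrix proteins, of DNA replication and of mitosis had median levels below the invasive mean in each of the 3 MK801 libraries. So did lysosome, hyaluronan and axon guidance genes, among others. The median group differences of these were -0.46, -0.50 and -0.23, smaller than those of the collagen, matrix glycoprotein, replication and mitosis genes. The ratio of invasive to MK801 mean FPKM was 3.88 for COL1A1, of type I collagen, 3.72 for FN1, fibronectin, and 2.13 for MKI67, of dividing cells. The interstitial collagenase MMP1, the protease inhibitor TFPI2, the calcium-binding protein CALB2 and several long non-coding RNAs were higher in the MK801 libraries, with ratios of MK801 to invasive means of 3.04, 4.41 and 3.57 for these 3 proteins. No single gene passed the test across all genes. Limma called 0 of 10962 genes (0% at a Benjamini-Hochberg adjusted p under 0.05) and the smallest adjusted p was 0.0616. An unadjusted p under 0.05 was found for 569 genes (5.19%), 236 higher and 333 lower. Limma-voom on fragments recovered from FPKM also called 0, with 664 at an unadjusted p under 0.05. An exact permutation test of 3 libraries against 3 cannot give a two-sided p below 0.1, so none is given. Levels are therefore described by library, and by whether the groups overlap. All 3 MK801 libraries were below the lowest invasive library for 635 genes (5.79%) and above the highest for 572 (5.22%), and these shares are the background for the counts of members that follow. With a library left out this rule is easier to meet, so the counts can only rise. They were 2029 genes below and 1833 above without MK801 replicate 1, and 1296 and 1211 without replicate 3. Without invasive replicate 3, 980 lay below, and without invasive replicate 2, 878 lay above. Over all genes tested, 5626 (51.3%) had a difference below 0, and the median difference was -0.01.

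The 3 MK801 libraries differed more from each other than the invasive libraries did. The range over the 3 libraries was wider in the MK801 group for 9062 genes (82.7%), with a median range of 0.94 against 0.46 on the log2(FPKM + 1) scale. Across genes, which are not independent replicates, Pearson's r was 0.958 to 0.981 between invasive libraries. It was 0.945 between MK801 replicates 1 and 2, 0.928 between 2 and 3, and 0.827 between 1 and 3. MK801 replicate 2 stayed closest to the invasive mean, with an SD of the difference over genes of 0.42, against 0.62 for replicate 1 and 0.77 for replicate 3. For 5139 genes (46.9%), MK801 libraries lay on opposite sides of the invasive range. In 2227 of these replicate 1 was above and replicate 3 below that range, and in 2479 the reverse held. Replicate 1 was the only MK801 library above the invasive range for 2341 genes and the only one below it for 2400, replicate 3 for 2241 and 2334, and replicate 2 for just 407 and 293.

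**Figure D1:**
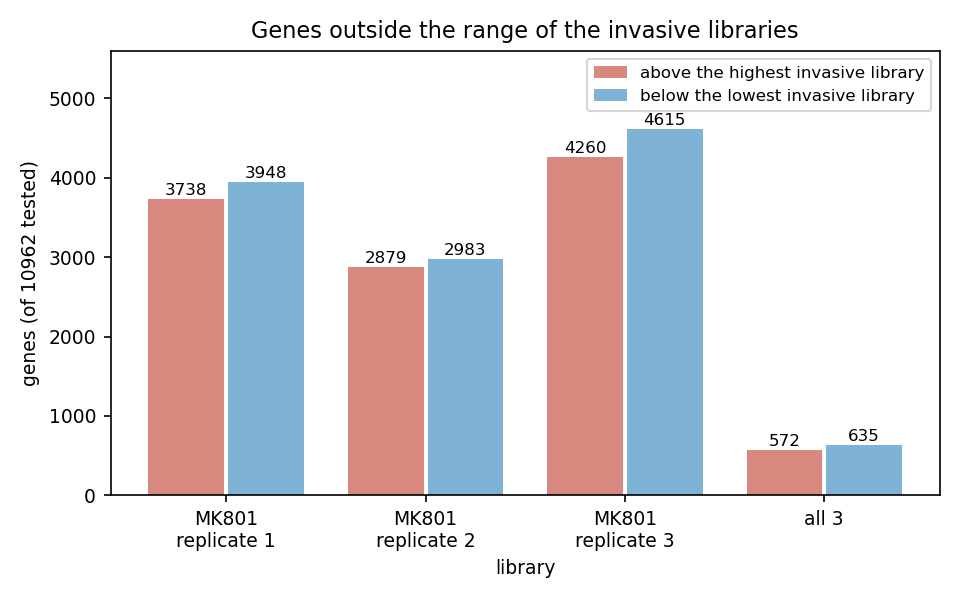
Bars show, for each MK801 library and for all 3 together, the number of the 10962 genes tested that lay above the highest (red) or below the lowest (blue) of the 3 invasive libraries. Single libraries left the invasive range for 2879 to 4615 genes in either direction, but all 3 did so together for 572 genes above and 635 below.

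The genes whose MK801 libraries stood farthest apart, relative to the invasive libraries, were low in replicate 1 and high in replicate 3. ATP13A3, a P5-type transport ATPase, was at 6.71, 6.82 and 10.1 FPKM in the invasive and 3.08, 13.3 and 35.4 FPKM in the MK801 libraries. MTMR6, a phosphoinositide phosphatase, was at 6.004, 6.65 and 7.84 FPKM in the invasive and 1.10, 6.28 and 15.1 FPKM in the MK801 libraries. CAB39, a scaffold of the kinase LKB1, was at 5.08, 5.49 and 6.45 FPKM in the invasive and 0.725, 5.43 and 10.2 FPKM in the MK801 libraries. In each of these 3 genes MK801 replicate 1 was below and replicate 3 above every invasive library, and the group means hide this (differences 0.56, -0.32 and -0.41). PGM2L1, a glucose 1,6-bisphosphate synthase, was at 1.27, 5.74 and 15.2 FPKM in the MK801 libraries. OPN1SW, the short-wavelength opsin, was at 0, 7.09 and 12.8 FPKM. These are 5 of the 6 genes that the rule for such genes takes.

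This spread moved with the GC content of genes. Transcripts weighted by fragments had a GC content of 52.4, 53.7 and 51.9% in the invasive and 53.6, 52.4 and 49.7% in the MK801 libraries. Across genes, the difference from the invasive mean had a Spearman's rho with GC content of 0.507 in MK801 replicate 1, -0.060 in replicate 2 and -0.702 in replicate 3. In the tenth of genes with the lowest GC content (median 37.2%) the median difference was -0.61, 0.01 and 0.86, and in the tenth with the highest (median 64.1%) it was 0.36, -0.03 and -0.76. Gene length moved with it (rho -0.317, 0.103 and 0.183), and the number of genes detected at equal depth was lowest in MK801 replicate 1 and highest in replicate 3. Whether RNA quality, library preparation or the cells differed was not tested. With a smooth trend over GC content removed from each library, MK801 libraries still lay on opposite sides of the invasive range for 3709 genes (33.8%). Limma then called 14 genes (0.128%), 11 higher and 3 lower, with 1275 at an unadjusted p under 0.05. All 3 MK801 libraries were then below the invasive range for 1009 genes (9.2%) and above it for 983 (8.97%).

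**Figure D2:**
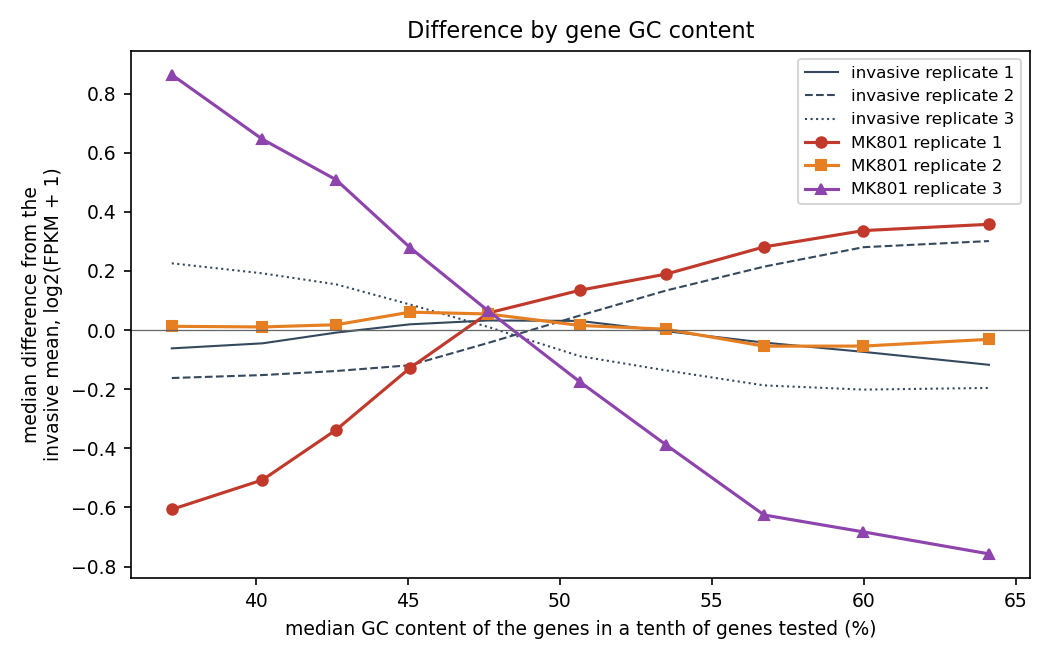
Lines join the median difference of each library from the mean of the 3 invasive libraries, log2(FPKM + 1), over 10 equal bins of the genes tested ordered by GC content (%). MK801 replicates 1 and 3 run in opposite directions, from -0.61 to 0.36 and from 0.86 to -0.76, while replicate 2 stays between -0.05 and 0.06.

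Fibrillar collagens, which form the tensile fibres of matrix, were lower in the MK801 libraries. All 7 tested of 11 had a difference below 0 (median -1.45), and for 5 of the 7 (71.4%, against 5.79% of all genes) every MK801 library was below every invasive library. COL1A1 (ENSG00000108821, chromosome 17, 50183289 to 50201632 on GRCh38), the major chain of type I collagen, was at 217, 341 and 185 FPKM in the invasive and 93.5, 71.8 and 26.3 FPKM in the MK801 libraries. The 2 groups did not overlap, and MK801 replicate 3 was the lowest of the 6. The means differed 3.88-fold (difference -2.07, SE 0.49, limma adjusted p = 0.431). COL1A2, its partner chain, was at 156, 205 and 127 FPKM in the invasive and 67.3, 71.4 and 40.4 FPKM in the MK801 libraries. COL3A1, type III collagen, was weakly expressed at 3.75, 2.81 and 1.59 FPKM in the invasive and 0.0311, 0.304 and 0.443 FPKM in the MK801 libraries. Its lack of overlap was set by the filter, as only its invasive libraries reached 1 FPKM. COL5A1 and COL5A2, type V chains that start fibrils, had differences of -1.46 and -1.19 and also did not overlap. COL5A3 and COL27A1 overlapped between the groups (-0.16 and -0.03): MK801 replicate 1 was below the invasive libraries for both, at 1.27 and 1.54 FPKM, and replicates 2 and 3 were not. The median of the list was -1.23, -1.15 and -1.32 in MK801 replicates 1, 2 and 3, and -1.30 for the group difference with the GC trend removed.

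Collagens that form networks, beaded filaments or anchoring fibrils were lower as well, with 10 of 11 tested below every invasive library in all 3 MK801 libraries (90.9%, median -1.19). COL6A1 and COL6A2, chains of the beaded type VI collagen and the collagen genes with the highest FPKM, were at 389, 389.9 and 189 against 616, 1125 and 497 FPKM and 669, 580.3 and 267 against 886, 1558 and 777 FPKM. COL6A3, the remaining major chain, was at 26.8, 52.2 and 30.9 against 97.3, 127 and 83.4 FPKM. COL7A1, the anchoring fibril collagen, was at 5.91, 7.69 and 5.72 against 22.1, 24.98 and 12.8 FPKM. For COL6A1 and COL6A2 the third MK801 library was far below the other MK801 libraries, and for COL6A3 and COL7A1 it was not. COL16A1, a fibril-associated collagen, was at 1.83, 1.96 and 1.23 against 6.80, 6.08 and 5.35 FPKM, with the smallest adjusted p of the list (limma adjusted p = 0.286, difference -1.41, SE 0.25). COL4A1 and COL4A2, a basement membrane pair, had differences of -0.92 and -1.36, though their annotations overlap on opposite strands, and COL12A1 of -1.28. By MK801 library the median was -1.04, -0.84 and -1.63 (-1.19, -0.79 and -0.94 with the GC trend removed), and in each library 10 of the 11 genes were below the invasive range. The exception was COL13A1, a transmembrane collagen, at 3.29, 3.61 and 3.11 against 2.79, 3.55 and 2.57 FPKM.

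Of 27 matrix glycoproteins and proteoglycans tested, 25 were lower on average and 16 (59.3%) lay below the invasive range in all 3 MK801 libraries. LUM was among the 16, and its lack of overlap was set by the filter. The median of the list was -0.75 (-0.70, -0.56 and -1.06 by MK801 library, and -0.72, -0.54 and -0.69 with the GC trend removed). FN1 (ENSG00000115414, chromosome 2, 215360440 to 215436172), which encodes fibronectin, was at 92.1, 145 and 64.6 FPKM in the invasive and 31.4, 35.3 and 14.6 FPKM in the MK801 libraries. The groups did not overlap, and the invasive mean was 3.72-fold higher (difference -1.87, SE 0.43, limma adjusted p = 0.408). TGFBI, which binds collagen and cell surfaces, was at 236, 413 and 180.1 FPKM in the invasive and 129, 73.0 and 32.1 FPKM in the MK801 libraries, and spanned a wide range within the MK801 group. TNC, tenascin-C, a glycoprotein abundant in glioma matrix, was at 74.0, 87.7 and 61.6 FPKM in the invasive and 25.6, 43.8 and 22.7 FPKM in the MK801 libraries. NID1, LAMB1 and FBN1, a basement membrane linker, a laminin chain and fibrillin-1, had differences of -1.06, -0.97 and -1.07, each with all MK801 libraries below the invasive libraries. In the opposite direction, the cell surface proteoglycans SDC2 (7.15, 7.63 and 9.22 against 3.52, 5.41 and 5.44 FPKM) and SDC4 (189.6, 219 and 158 against 152, 127 and 125 FPKM) were above the invasive range in all 3 MK801 libraries.

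**Figure D3:**
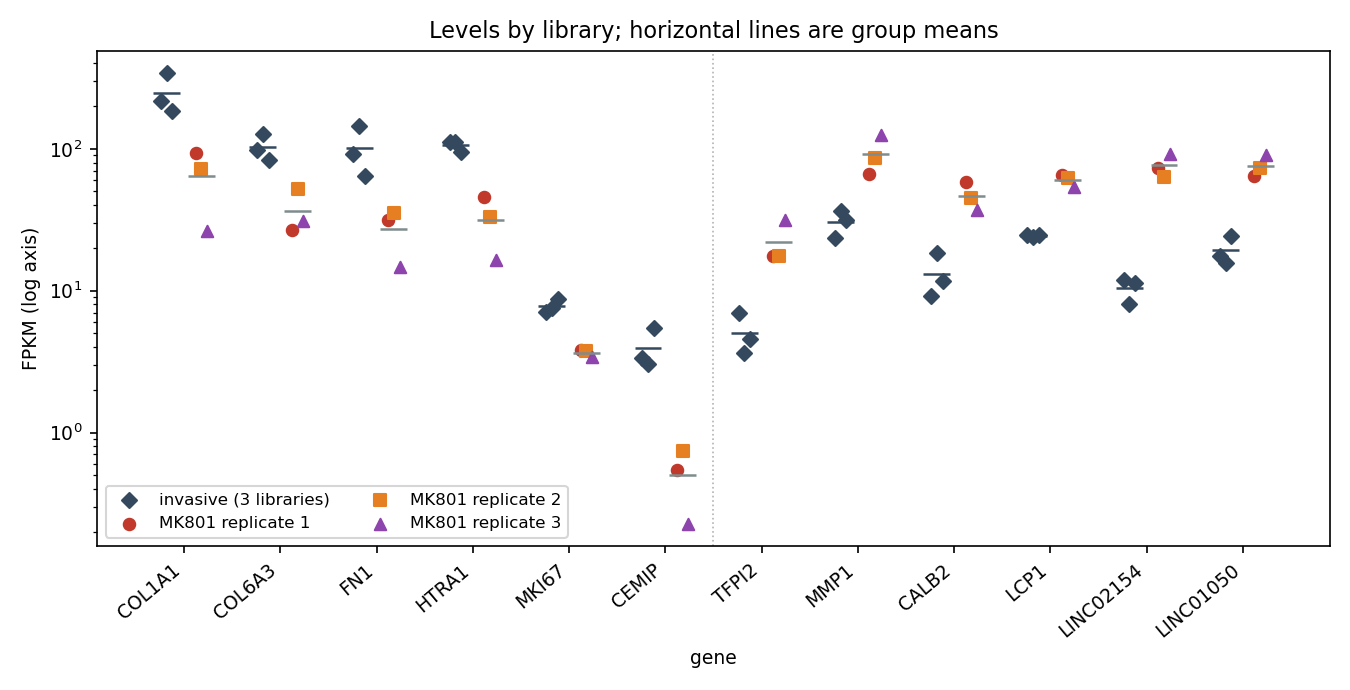
Points are FPKM (log axis) of 12 genes in each of the 3 invasive and 3 MK801 libraries, and horizontal lines are group means. The first 6 genes are lower and the last 6 higher in every MK801 library than in every invasive library.

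All 20 tested genes of collagen processing and crosslinking were lower on average (median -0.62), 9 of them (45.0%) without overlap. By MK801 library the median was -0.34, -0.44 and -1.12. With the GC trend removed it was -0.58, -0.43 and -0.66, and 14 of the 20 (70%, against 9.2% of all genes) lay below the range. PCOLCE, which speeds the trimming of procollagen, was at 52.7, 83.8 and 45.6 FPKM in the invasive and 27.1, 19.5 and 7.29 FPKM in the MK801 libraries. LOXL1 and LOXL2, lysyl oxidases that crosslink collagen and elastin, were at 29.8, 21.6 and 8.76 against 53.2, 58.3 and 54.3 FPKM and 104, 93.3 and 43.2 against 147, 308 and 115 FPKM. In PCOLCE, LOXL1 and LOXL2, MK801 replicate 3 was well below the other MK801 libraries, so the size of the difference depends on the library. LOX, the founding member, was at 8.81, 15.3 and 19.5 against 19.6, 26.4 and 20.8 FPKM, and its replicate 3 came close to the invasive range. BMP1, a procollagen C-proteinase, had a difference of -0.68.

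Matrix proteases and their inhibitors split. Of 28 tested, 5 lay above (17.9%, against 5.22%) and 5 below the invasive range in all 3 MK801 libraries, and the median was -0.11. Of the 5 above, 4 are described here, TFPI2, MMP1, MMP10 and MMP3. TFPI2 (ENSG00000105825, chromosome 7, 93885396 to 93890991), an inhibitor of plasmin and other serine proteases, was at 6.93, 3.62 and 4.56 FPKM in the invasive and 17.6, 17.6 and 31.5 FPKM in the MK801 libraries. It was 4.41-fold higher in the MK801 means (difference 1.93, SE 0.33, limma adjusted p = 0.280), and was among the 14 genes called with the GC trend removed (adjusted p = 0.0436). MMP1, which cleaves fibrillar collagen, was at 23.5, 36.3 and 31.4 FPKM in the invasive and 66.4, 86.7 and 124 FPKM in the MK801 libraries, with MK801 replicate 3 the highest. The stromelysins MMP3 and MMP10 were at 7.38, 5.79 and 10.6 against 3.27, 4.01 and 4.28 FPKM and 3.74, 3.10 and 4.19 against 1.70, 1.04 and 0.285 FPKM. The 5 below were TIMP2, TIMP3, PLAU, MMP2 and ADAM12. TIMP2, an inhibitor of metalloproteinases, was at 84.5, 74.1 and 33.8 against 136, 155 and 116 FPKM. PLAU, the urokinase that activates plasminogen, was at 56.3, 49.6 and 27.6 against 93.7, 80.5 and 74.3 FPKM, and MMP2, gelatinase A, at 291, 338 and 148 against 376, 457 and 357 FPKM. TIMP3 was barely below, at 40.6, 41.0 and 27.3 against 42.3, 46.7 and 43.7 FPKM.

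In the core libraries, which like the MK801 libraries hold non-invading cells, mean levels (± SD of 3 libraries) were 37.4 ± 17.7 FPKM for COL1A1, 26.9 ± 11.9 for FN1, 15.4 ± 3.04 for TFPI2 and 78.9 ± 14.7 for MMP1. The MK801 means were 63.9 ± 34.3, 27.1 ± 10.98, 22.2 ± 8.02 and 92.4 ± 29.3 FPKM. For these 4 genes the MK801 mean thus lay nearer to the core than to the invasive mean, but this did not hold for all genes. TIMP3 (MK801 36.3, core 14.5, invasive 44.2 FPKM) and LOX (14.6, 35.9 and 22.2 FPKM in the same order) lay nearer to the invasive mean. COL6A3 (36.6, 53.6 and 102.7 FPKM) and MKI67 (3.66, 5.88 and 7.79 FPKM) lay below both means. The MK801 means of TFPI2 and MMP1 were above both the core and the invasive means. So was that of CALB2, at 46.6 ± 10.7 FPKM against 24.4 ± 7.51 in the core and 13.1 ± 4.80 in the invasive libraries. No difference from the core libraries was tested here.

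The gel itself is made of hyaluronan. Of 9 tested genes of its synthesis, turnover and binding, 7 were lower on average and 2 without overlap (22.2%, median -0.50). With the GC trend removed, 5 of the 9 lay below the invasive range (55.6%, against 9.2% of all genes, median -0.37). CEMIP, a hyaluronan-binding protein needed for its breakdown, was at 3.35, 3.02 and 5.495 FPKM in the invasive and 0.547, 0.739 and 0.228 FPKM in the MK801 libraries. Its means differed 7.83-fold (difference -1.70, SE 0.29, limma adjusted p = 0.280), and it overlaps MESD on the other strand. As only its invasive libraries reached 1 FPKM, the filter alone set the lack of overlap between its groups. The other was HYAL3, a hyaluronidase (2.40, 2.30 and 1.15 against 3.29, 5.58 and 3.23 FPKM), which shares a strand with the overlapping IFRD2 and NAA80 and is uncertain. HAS2, a hyaluronan synthase, was at 4.87, 3.51 and 5.32 FPKM in the invasive and 2.85, 4.13 and 7.12 FPKM in the MK801 libraries, so the groups overlapped. CD44, the main hyaluronan receptor, was at 77.3, 106 and 69.0 FPKM in the invasive and 78.5, 76.6 and 49.2 FPKM in the MK801 libraries, and also overlapped.

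Among markers of fibroblasts and pericytes, 8 of 11 were tested, all 8 lower on average (median -1.03). Of the 8, 6 were without overlap (75%, against 5.79% of all genes). For LUM and COL3A1 the lack of overlap was set by the filter. With the GC trend removed, 5 of the 8 lay below the invasive range (62.5%, against 9.2% of all genes). This list shares COL1A1, COL1A2 and COL3A1 with the collagens. The summed level of the 11 was 432, 628 and 357 FPKM in the invasive and 202, 175 and 85.6 FPKM in the MK801 libraries, and without the collagens 55.4, 79.6 and 44.3 against 40.8, 31.8 and 18.5 FPKM. PDPN was at 0 in all 6 libraries and DCN under 1 FPKM, while PDGFRB, a growth factor receptor, was the most abundant after the collagens. Their part in the matrix result was not tested. Markers of microglia, macrophages and leukocytes (10 of 11), endothelium (7 of 10), neurons (8 of 10) and oligodendrocytes (6 of 7) mostly stayed under 1 FPKM in all 6 libraries, as these counts give. Of the 13 astrocyte and glioma markers, 8 were under 1 FPKM throughout, among them GFAP and NES, and OLIG2, AQP4 and CHI3L1 were at 0. VIM, CD44, EGFR, SOX9 and SOX2 were expressed. Thus 5 of the 13 markers of the labelled glioma identity reached 1 FPKM.

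Genes of the cell cycle were lower in the MK801 libraries. All 45 mitosis genes tested had a difference below 0 (median -0.68), and 17 (37.8%) lay below the invasive range in all 3 MK801 libraries. Of 38 DNA replication genes tested, 37 had a difference below 0 (median -0.69) and 18 (47.4%) lay below the range. The medians by MK801 library were -0.60, -0.77 and -0.56 for mitosis and -0.24, -0.81 and -1.03 for replication, so replicate 1 departed least in replication genes. Below the lowest invasive library were 34, 43 and 28 of the 45 mitosis genes and 21, 36 and 33 of the 38 replication genes. Mitosis genes had a median GC content of 43.2%, in the range where MK801 replicates 1 and 3 departed in opposite directions. With the GC trend removed, 28 mitosis genes (62.2%, against 9.2% of all genes) and 21 replication genes (55.3%) lay below the range. The medians by library were then -0.32, -0.80 and -1.01 for mitosis and -0.20, -0.81 and -0.90 for replication, so replicates 1 and 3 no longer had like medians for mitosis.

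MKI67, whose product Ki-67 coats mitotic chromosomes, was at 7.07, 7.59 and 8.69 FPKM in the invasive and 3.84, 3.73 and 3.41 FPKM in the MK801 libraries. The MK801 libraries were within a narrow range, all under the lowest invasive value, and the means differed 2.13-fold (difference -0.91, SE 0.24, limma adjusted p = 0.497). KIF20A, a kinesin of cytokinesis that overlaps CDC23 and BRD8 on the other strand, was at 13.6, 10.1 and 11.4 FPKM in the invasive and 5.48, 6.10 and 4.04 FPKM in the MK801 libraries. NCAPH, a condensin subunit, was at 8.49, 6.52 and 10.7 FPKM in the invasive and 4.48, 3.38 and 3.22 FPKM in the MK801 libraries. KIF4A, a chromosome-bound kinesin, was at 10.9, 14.7 and 13.5 FPKM in the invasive and 4.91, 7.33 and 5.91 FPKM in the MK801 libraries; it overlaps PDZD11 on the other strand. FOXM1, the transcription factor of mitotic genes, was at 15.9, 9.36 and 4.83 FPKM in the MK801 libraries and 18.8, 20.6 and 18.6 in the invasive libraries, with replicate 3 far below replicate 1, and it overlaps RHNO1 on the other strand. In these 5 mitosis genes the groups did not overlap. Among replication genes, UHRF1, which maintains DNA methylation at the fork, was at 21.0, 15.1 and 16.2 FPKM in the invasive and 9.38, 9.40 and 7.38 FPKM in the MK801 libraries. PCNA, the sliding clamp, was at 42.1, 29.2 and 48.1 FPKM in the invasive and 24.4, 13.4 and 21.7 FPKM in the MK801 libraries. MCM10 and CDC6, factors that load and start the replicative helicase, were at 0.687, 0.962 and 0.728 against 2.18, 2.03 and 2.36 FPKM and 2.92, 1.97 and 1.48 against 4.64, 4.14 and 5.73 FPKM, and MCM3, a helicase subunit, at 31.7, 23.1 and 17.5 against 46.0, 37.8 and 44.5 FPKM. These 5 genes did not overlap between the groups either, MCM10 by the filter alone. The 1 replication gene with a difference above 0 was CCNE1, cyclin E1, which triggers the start of replication, at 4.35, 2.24 and 1.66 against 1.36, 1.55 and 1.41 FPKM.

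**Figure D4:**
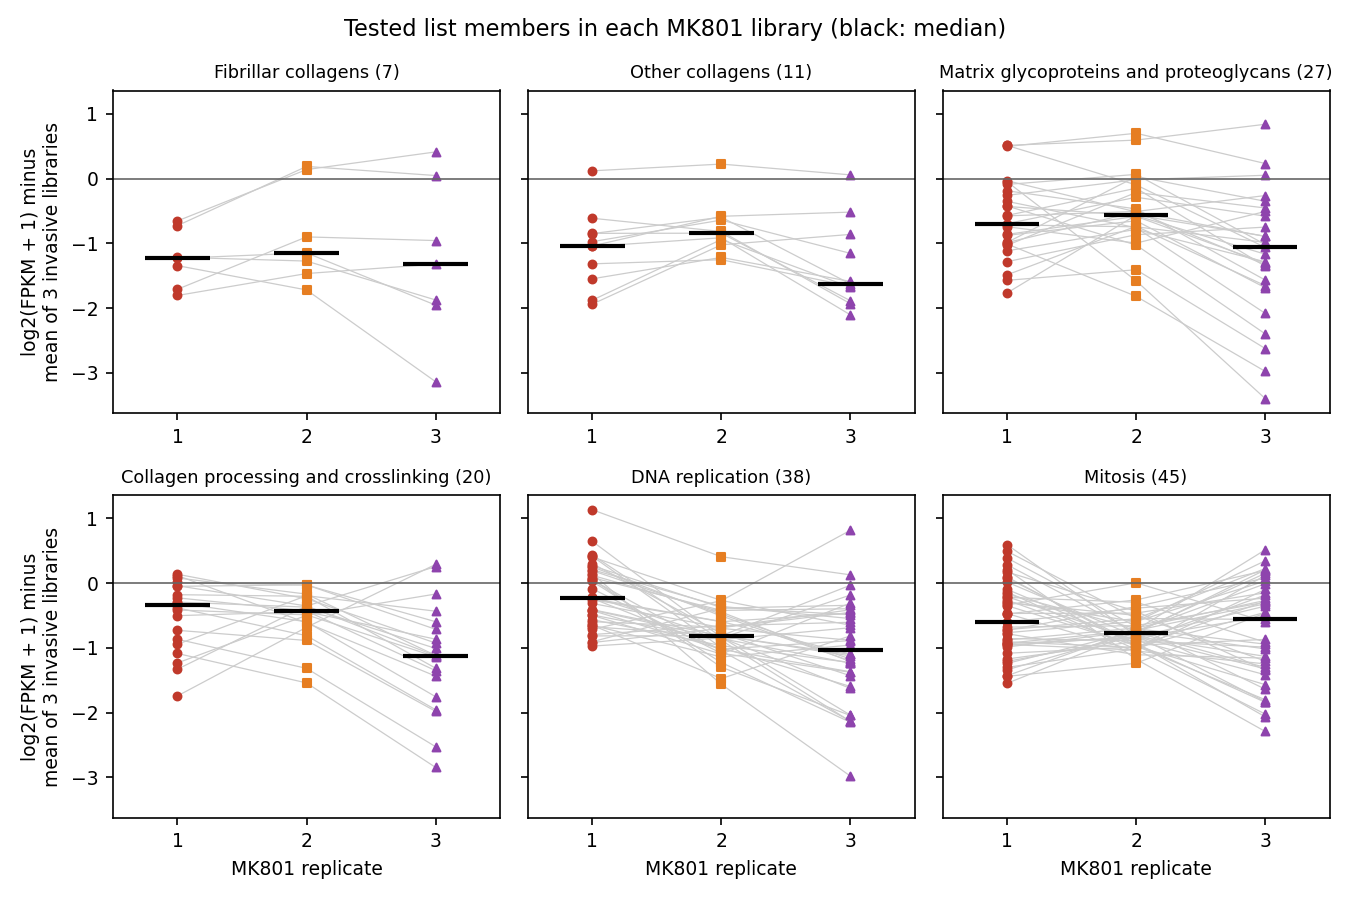
Each panel shows the tested members of 1 list (number in brackets) as the difference of each MK801 library from the mean of the 3 invasive libraries, log2(FPKM + 1), with grey lines joining a gene and black bars at the median. The medians are below 0 in each of the 3 libraries in all 6 panels.

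The letters of the promoters of both lists were compared as a description. All tested members with an entry were taken whatever their difference, and a link between letters and levels was not tested. Sequences are from RefSeq (GRCh38.p14) and cover the 250 bases before each gene's start, with an entry for 38 of the 45 mitosis genes, 33 of the 38 replication genes and 8022 of the genes tested. The CHR letters TTTGAA, on either strand, were in 55.3% of the mitosis promoters, 3.03% of the replication promoters and 7.63% of the promoters of genes tested. E2F letters, TTCCCGC or TTGGCGC on either strand, were in 21.1%, 54.5% and 13.2% of the same promoters. The CCAAT box, CCAAT on either strand, was in 68.4%, 60.6% and 35.5%, and both CCAAT and TTTGAA were in 42.1%, 3.03% and 3.20%. In all 27305 promoters of the table the shares were 13.6% for TTTGAA, 7.95% for E2F letters and 33.0% for CCAAT. A match describes letters and is no evidence of binding. Below are 120 bases before the start of 2 mitosis genes and 2 replication genes, chosen after their values and letters were seen and printed to show how the letters are arranged. Capitals mark CHR and CCAAT letters in the first pair, and E2F letters in the second pair. In MKI67 the last CHR and CCAAT matches overlap.
MKI67, chr10:128126424-128126543, minus strand: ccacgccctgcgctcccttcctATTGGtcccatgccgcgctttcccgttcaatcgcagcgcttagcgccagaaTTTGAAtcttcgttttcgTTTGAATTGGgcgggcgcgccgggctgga
KIF4A, chrX:70289984-70290103, plus strand: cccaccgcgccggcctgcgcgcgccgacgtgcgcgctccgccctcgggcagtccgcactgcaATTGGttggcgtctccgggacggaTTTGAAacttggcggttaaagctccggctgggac
UHRF1, chr19:4909381-4909500, plus strand: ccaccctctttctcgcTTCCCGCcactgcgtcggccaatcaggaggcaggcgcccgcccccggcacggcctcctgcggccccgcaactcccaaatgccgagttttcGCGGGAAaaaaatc
PCNA, chr20:5126623-5126742, minus strand: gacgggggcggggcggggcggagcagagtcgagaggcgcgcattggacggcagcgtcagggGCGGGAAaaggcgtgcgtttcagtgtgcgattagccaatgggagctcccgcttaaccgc

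The 10 protein-coding genes named first as higher were TFPI2, CALB2, SLC39A11, TRIML2, LCP1, MMP1, SERPINB2, MAGEH1, NRIP3 and IQCG, with limma adjusted p from 0.280 to 0.468. CALB2 (ENSG00000172137, chromosome 16, 71358713 to 71390438), calretinin, a calcium-binding protein of neurons and mesothelium, was at 9.15, 18.4 and 11.6 FPKM in the invasive and 58.0, 45.1 and 36.8 FPKM in the MK801 libraries. The groups did not overlap, and it was called with the GC trend removed (difference 1.88, adjusted p = 0.0365). LCP1, the actin-bundling protein L-plastin, was at 24.6, 24.03 and 24.7 FPKM in the invasive and 65.0, 62.5 and 53.7 FPKM in the MK801 libraries, with tight groups on both sides. SLC39A11, a zinc transporter, was at 5.75, 5.005 and 4.95 FPKM in the invasive and 12.1, 16.8 and 15.7 FPKM in the MK801 libraries. In all 10 genes every MK801 library was above every invasive library, as the rule for naming them requires. SERPINB2, an inhibitor of urokinase, was at 8.69, 6.65 and 12.7 against 3.91, 2.67 and 2.99 FPKM, and TRIML2, a TRIM-like protein, at 39.96, 47.5 and 65.6 against 11.6, 20.6 and 15.7 FPKM. NRIP3 was at 54.3, 60.3 and 42.1 against 25.7, 23.2 and 22.5 FPKM and MAGEH1 at 15.6, 12.4 and 17.1 against 6.45, 7.33 and 4.35 FPKM. IQCG, at 9.25, 8.64 and 9.59 against 3.92, 5.15 and 3.26 FPKM, overlaps the abundant RPL35A on the other strand and is uncertain.

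The 10 named first as lower were HTRA1, COL7A1, ANPEP, LSP1, FN1, COL6A3, NR2F1, COL5A1, COL1A1 and OLFML2A, with limma adjusted p from 0.360 to 0.439, of which 5 are collagens or fibronectin. HTRA1 (ENSG00000166033, chromosome 10, 122458551 to 122514908), a secreted serine protease that cuts fibronectin and restrains TGF-beta signalling, was at 112, 112 and 95.4 FPKM in the invasive and 45.4, 33.2 and 16.4 FPKM in the MK801 libraries. ANPEP, aminopeptidase N, was at 32.9, 47.1 and 25.8 FPKM in the invasive and 12.7, 12.8 and 5.34 FPKM in the MK801 libraries. LSP1, an actin-binding protein of leukocytes, was at 8.06, 12.01 and 8.01 FPKM in the invasive and 4.005, 2.88 and 1.33 FPKM in the MK801 libraries. HTRA1, ANPEP and LSP1 were the 3 lower genes called with the GC trend removed (differences -1.68, -1.58 and -1.36, adjusted p = 0.0394, 0.0436 and 0.0365). As for TFPI2 and CALB2, their limma adjusted p was 1.00 without MK801 replicate 2 and 1.2e-05 or less with library weights. Those weights did not converge, so the weighted values rest on 1 MK801 library, replicate 2. NR2F1, an orphan nuclear receptor, was at 6.75, 6.56 and 6.70 against 12.6, 16.2 and 16.6 FPKM, with the 3 MK801 libraries close together. OLFML2A, a secreted olfactomedin-like protein, was at 4.57, 4.36 and 1.98 against 9.62, 10.7 and 8.98 FPKM.

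Of the 11 higher genes called with the GC trend removed, 9 were non-coding, and these were chosen after their values were seen. LINC02154 (ENSG00000235385, chromosome X, 13266048 to 13303452), a long intergenic RNA, had the smallest p of all genes in both fits and was at 11.9, 7.99 and 11.4 FPKM in the invasive and 73.1, 63.7 and 92.5 FPKM in the MK801 libraries. The means differed 7.33-fold, and no MK801 library came near an invasive one (difference 2.76, SE 0.29, limma adjusted p = 0.0616, and 0.0146 with the GC trend removed). Over the alternatives its limma adjusted p ran from 4.8e-08 with library weights to 0.569 without MK801 replicate 2. The weights did not converge, so the first value rests on 1 MK801 library, replicate 2. LINC01050 was at 17.6, 15.6 and 24.3 FPKM in the invasive and 64.1, 73.1 and 89.7 FPKM in the MK801 libraries. LINC00520 was at 6.33, 6.46 and 9.06 against 1.41, 1.29 and 0.475 FPKM and LINC01705 at 25.5, 23.3 and 22.3 against 10.8, 10.2 and 9.72 FPKM. AC003092.1 (ENSG00000236453, chromosome 7, 94022833 to 94066661), an intergenic RNA near TFPI2, was at 3.65, 4.96 and 2.92 FPKM in the invasive and 15.9, 14.5 and 27.3 FPKM in the MK801 libraries, with MK801 replicate 3 the highest, as for TFPI2. LINC00659 and AC119396.2 are annotated as antisense genes. LINC00659 was at 27.9, 15.8 and 13.5 against 1.88, 6.07 and 2.41 FPKM, and AC119396.2 had 16, 12 and 49 fragments in the MK801 and 0 in the invasive libraries. MIR6775 and SNORA71B lie within the hosts SLC7A5 and SNHG17. MIR6775 had 5, 5 and 11 fragments in the MK801 and 0 in the invasive libraries, too few to read a level from, and SNORA71B had 23, 16 and 57 against 0, 0 and 3. In the core libraries, LINC02154 was at 56.4 ± 28.3 FPKM and LINC01050 at 56.6 ± 12.9 FPKM.

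Transcripts of the drug's target were scarce in all 6 libraries. GRIN1 was at 0, which allows up to 0.0315 FPKM in the library with the highest limit (3 fragments, counting error only). Only GRIN2D, a glutamate-binding subunit, exceeded 1 FPKM in any library among the 7 NMDA receptor subunits, at 1.10, 2.29 and 0.374 FPKM in the invasive and 1.17, 1.12 and 0.341 FPKM in the MK801 libraries, where the groups overlapped (difference -0.21, limma adjusted p = 0.999). Of the others, GRIN3B had the highest value, 0.494 FPKM in MK801 replicate 2, and GRIN2A, GRIN2B, GRIN2C and GRIN3A were at 0.271 FPKM or less. All 19 other glutamate receptor genes were under 1 FPKM, 7 of them at 0. Of 26 tested genes of calcium entry, stores and calcium-activated enzymes, 13 had a difference above and 13 below 0, and 0 lay outside the invasive range in all 3 MK801 libraries (1 below it with the GC trend removed).

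Immediate-early genes, which calcium and growth factors induce within minutes, were below the invasive range in all 3 MK801 libraries for 6 of 26 tested (23.1%, median -0.40). EGR2 was at 8.68, 5.38 and 6.26 FPKM in the invasive and 1.07, 2.41 and 2.86 FPKM in the MK801 libraries, and MK801 replicate 1 was the lowest. EGR3 was at 0.771, 1.75 and 2.22 against 3.95, 2.85 and 3.62 FPKM. EGR1, a more abundant member, was at 563, 762 and 406 against 1007, 988 and 870.0 FPKM. FOSL2 was lower without overlap (-0.65), whereas FOS (674, 797 and 341 against 984, 987 and 785 FPKM) and ARC (3.31, 2.97 and 1.84 against 4.17, 5.85 and 3.28 FPKM) overlapped between the groups. The medians by MK801 library were -0.30, -0.04 and -0.57. With the GC trend removed they were -0.61, 0.001 and -0.15, so that replicate 1 rather than replicate 3 lay farthest from 0. The group median was then -0.24. Below the range were 6 of the 26 genes (23.1%, against 9.2% of all genes) and above it 3 (11.5%, against 8.97%). Of 18 ERK output and feedback genes, 3 lay above the range (16.7%), the feedback inhibitors SPRY2 (46.5, 43.8 and 51.6 against 30.9, 35.6 and 32.9 FPKM), DUSP5 (48.7, 56.8 and 49.4 against 38.7, 36.3 and 36.9 FPKM) and SPRED2 (10.0, 13.5 and 10.6 against 9.92, 8.82 and 9.60 FPKM).

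Targets of YAP and TEAD, which report tension and spreading, were mixed. Of 23 tested, 6 lay below the invasive range (26.1%) and 1 above it, with a median of -0.19. With the GC trend removed, 4 lay below it (17.4%, against 9.2% of all genes) and 1 above. The medians by MK801 library were then -0.49, 0.04 and 0.001, so only replicate 1 stood apart. CCN2 (CTGF in the files), a matricellular protein, was at 54.3, 33.6 and 49.1 FPKM in the invasive and 17.7, 25.01 and 18.1 FPKM in the MK801 libraries, and CCN1 (CYR61 in the files), its relative, at 147, 98.9 and 158 FPKM in the invasive and 75.1, 82.1 and 89.3 FPKM in the MK801 libraries. ANKRD1, a muscle ankyrin repeat protein that is another classic target, differed in the opposite direction, at 0, 0.0281 and 0.202 FPKM in the invasive and 1.18, 1.41 and 4.64 FPKM in the MK801 libraries. Its lack of overlap was set by the filter alone. The TEAD letters GGAATG, on either strand, were in 4 of 15 promoters of this list (26.7%), against 9.41% of those of genes tested. CCN2 held 3 matches in the 120 bases printed here because they sit close together (179 to 60 bases before the start, capitals mark the matches):
CCN2, chr6:131951432-131951551, minus strand: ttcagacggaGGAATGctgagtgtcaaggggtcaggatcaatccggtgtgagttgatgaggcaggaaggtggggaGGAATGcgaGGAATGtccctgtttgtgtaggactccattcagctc

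Of 28 axon guidance genes tested, 25 were lower on average and 10 without overlap (35.7%, median -0.23). With the GC trend removed, 9 lay below the range (32.1%, against 9.2% of all genes). SLIT2, a secreted guidance cue, was at 3.57, 2.43 and 3.28 FPKM in the invasive and 0.444, 0.900 and 1.02 FPKM in the MK801 libraries. UNC5B, a netrin receptor, was at 8.44, 5.12 and 2.66 against 14.2, 16.0 and 8.96 FPKM, and PLXNA1, a semaphorin receptor, at 27.0, 34.7 and 19.8 against 49.6, 52.6 and 48.3 FPKM. Of 25 integrin and focal adhesion genes, 7 lay below the range (28.0%), including ITGA10, a collagen receptor chain, at 27.9, 32.8 and 21.4 against 48.4, 71.8 and 39.1 FPKM, although the median of the list was only -0.08. Of 28 lysosome genes, 9 lay below the range (32.1%, median -0.46), and 15 with the GC trend removed (53.6%, against 9.2% of all genes). The cathepsin CTSZ was at 44.4, 55.3 and 42.4 against 92.9, 78.8 and 81.8 FPKM and the membrane protein LAMP1 at 37.8, 30.01 and 18.7 against 43.6, 52.5 and 42.3 FPKM. Of 21 NF-kB and inflammatory cytokine genes, 2 lay below the range (9.52%, median -0.05) and 0 above. With the GC trend removed, the share below it was again 9.52%, near the 9.2% of all genes. CSF1, a macrophage growth factor of this list, was at 33.2, 37.5 and 34.6 FPKM in the invasive and 19.9, 19.1 and 8.53 FPKM in the MK801 libraries, without overlap.

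Chaperones of the endoplasmic reticulum, where secreted proteins fold, were split as well, with 6 of 21 below (28.6%) and 2 above the range. The disulphide isomerases PDIA4 and PDIA3 were at 33.4, 32.7 and 24.2 against 60.5, 52.0 and 51.8 FPKM and 27.0, 28.4 and 26.6 against 47.8, 54.4 and 41.8 FPKM, and the chaperone HYOU1 at 11.1, 11.9 and 8.47 against 17.5, 17.4 and 15.1 FPKM. HERPUD1, which serves the disposal of misfolded proteins, was at 30.4, 31.9 and 32.8 against 23.1, 19.7 and 21.2 FPKM, and the stress sensor ERN1 at 1.73, 2.96 and 2.73 against 1.65, 1.27 and 1.58 FPKM, both above the range. Of 25 tested genes of the integrated stress response, 1 lay above and 1 below the range (4% each, median -0.10), shares under those of all genes. DDIT3, the stress factor CHOP, was at 26.4, 21.1 and 31.7 against 17.1, 6.93 and 18.4 FPKM, but overlaps MARS on the other strand, and PSAT1, of serine synthesis, was at 9.82, 4.65 and 6.71 against 10.7, 10.5 and 14.7 FPKM. In the BCL2 family, 3 of 12 lay above the range (25%). For BCL2A1 and BMF the filter alone set this, as only their MK801 libraries reached 1 FPKM. The survival gene BCL2A1 was at 0.494, 0 and 0.966 FPKM in the invasive and 2.47, 2.91 and 3.50 FPKM in the MK801 libraries, and the pro-apoptotic genes BMF and BCL2L11 were at 1.17, 2.58 and 1.91 against 0.746, 0.857 and 0.616 FPKM and 2.02, 1.54 and 2.02 against 1.07, 0.909 and 1.01 FPKM. BCL2L11 overlaps MIR4435-2HG on the other strand.

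Several metabolic lists had medians of opposite sign in the MK801 libraries, so their group medians describe no library. Nuclear genes of oxidative phosphorylation had medians of 0.43, -0.29 and -0.78 in MK801 replicates 1, 2 and 3, and 0 of 39 lay outside the range in all 3. COX8A, a cytochrome oxidase subunit, was at 570.3, 234 and 120.5 against 308, 553 and 299 FPKM. Glycolysis genes had medians of 0.36, -0.22 and -0.67, and cytoplasmic ribosomal proteins of 0.76, 0.25 and -0.12. Of 45 ribosomal proteins, 40 were higher on average and 10 lay above the range (22.2%), among them RPL31 (106, 86.5 and 136 against 70.4, 59.0 and 70.1 FPKM). With the GC trend removed, 6 lay above it (13.3%, against 8.97% of all genes). Transcripts of the mitochondrial genome had medians of 0.42, 0.63 and -0.58. Cholesterol genes had medians of 0.01, -0.15 and -0.89 (-0.03, -0.13 and -0.34 with the GC trend removed, with 3 rather than 1 of 25 below the range, 12% against 9.2% of all genes). LSS, lanosterol synthase, the 1 member below the range in all 3, was at 30.6, 26.1 and 18.9 against 41.7, 48.2 and 38.3 FPKM. The authors' library total, by which FPKM are scaled, was 1.00, 0.788 and 1.06 times the gene total in the invasive and 0.769, 0.937 and 1.19 times in the MK801 libraries, smallest in MK801 replicate 1 and largest in replicate 3. Its part in them was not tested.

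**Figure D5:**
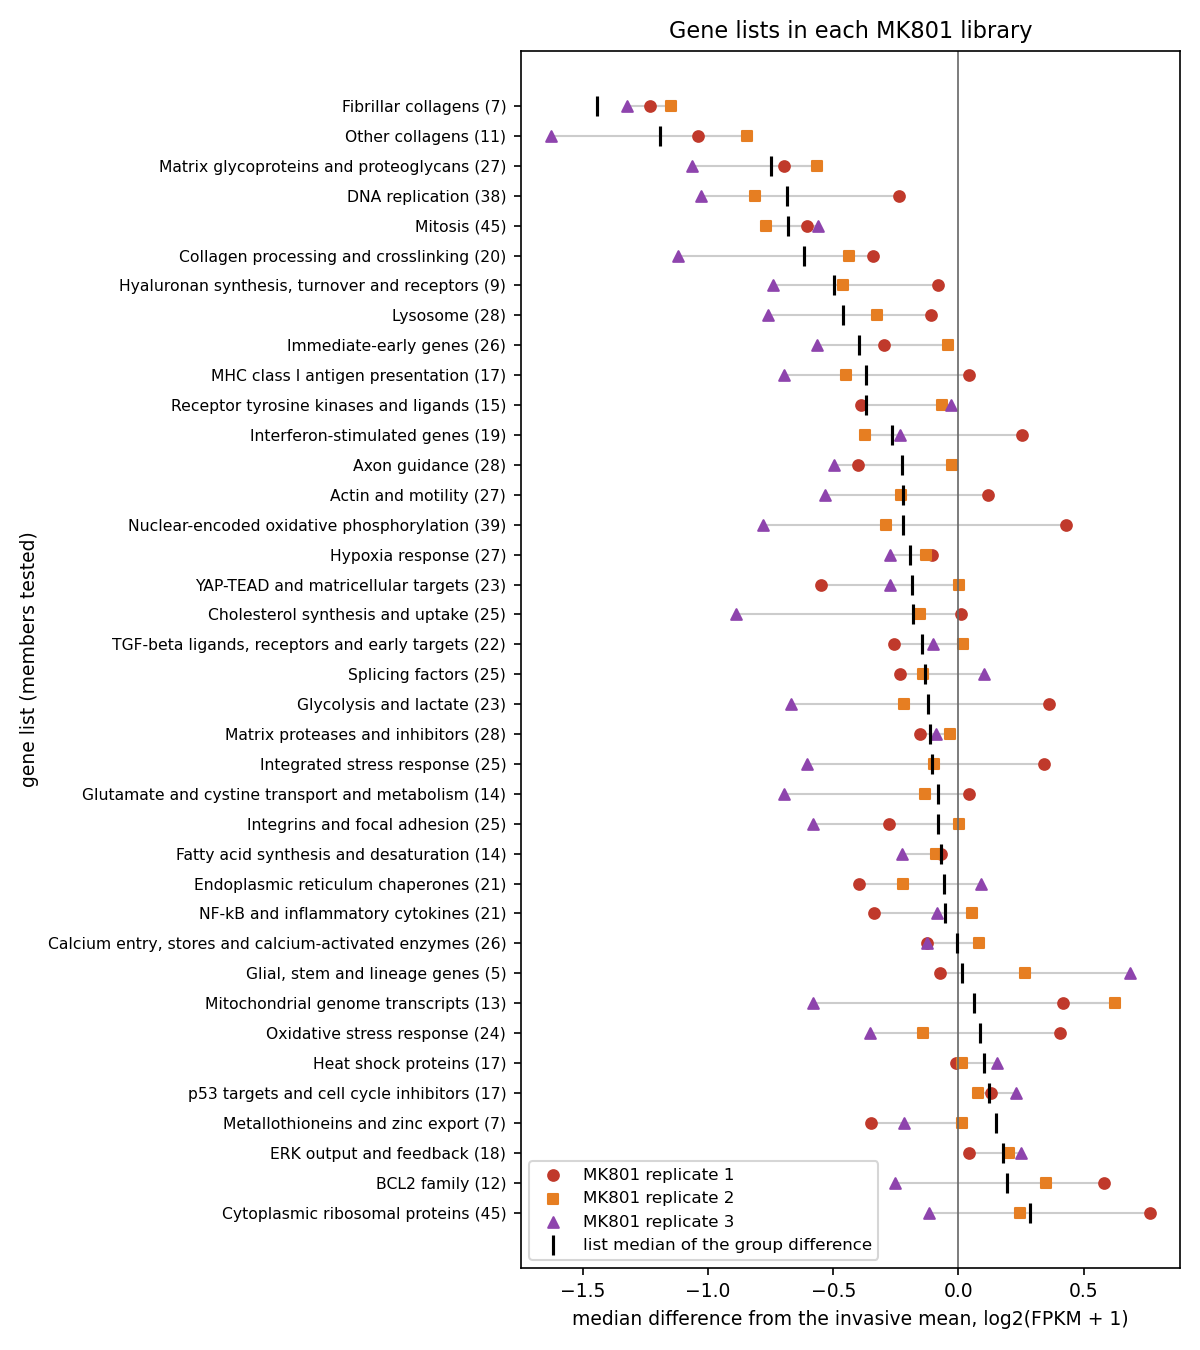
Symbols show, for each gene list with at least 5 tested members (number in brackets), the median difference of each MK801 library from the invasive mean, log2(FPKM + 1), and the black mark shows the median of the group difference. The lists of collagens, matrix, replication and mitosis lie below 0 in each library, as do others with smaller group medians, such as lysosome and hyaluronan genes. Those of ribosomal proteins, oxidative phosphorylation and glycolysis run from above 0 in replicate 1 to below 0 in replicate 3.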

How the data were processed

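Poly-T beads selected the RNA, per the labels' protocols. The authors deposited FPKM per gene. HISAT2 2.0.5, featureCounts 1.5.0-p3 and the build GRCh38 are listed in the submitters' processing notes. Their settings are not given in the sources used here, so strand use is not known. The samples were assigned to groups by their labels, and 0 value columns were left unmapped. Fragments per gene were recovered from FPKM, gene length and the smallest step in each library, and 100% came out whole (tolerance 0.01). Gene identifiers and coordinates matched GENCODE 29 for 99.98%. Log2(FPKM + 1) of genes with at least 1 FPKM in at least 3 of the 6 libraries was fitted with limma 3.58.1 in R 4.3.3 (empirical Bayes with a trend, 4 residual degrees of freedom, two-sided, Benjamini-Hochberg, threshold 0.05). The fit was tested on simulated data. Calls were required there only at a spread below that of these libraries, so power at their spread is not shown. GC content came from the longest GENCODE transcript, and its loess trend (span 0.3) was removed per library in an alternative. The 40 gene lists (995 symbols, 994 matched, 803 tested), the markers and the members were chosen with earlier results of these data known, and no set test was run. Named genes were protein-coding with a mean of at least 5 FPKM. They were the 10 per direction with the smallest p and groups that do not overlap, the 6 with the widest MK801 range relative to the invasive range, up to 4 members per list by p with its most abundant members, and the NMDA receptor subunits. Other list members named to complete a count were chosen with their values in view. The alternatives comprised other pseudocounts (0.1 and 0.5), filters (none and 5 FPKM), scalings, a replicate block, library weights, voom, all 9 libraries and leaving out each library.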

Additional observations from a re-analysis of the deposited data

How the results depend on the processing

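The 20 genes named first kept their direction in all 400 alternative values. They were chosen for groups that do not overlap, so other pseudocounts, other filters or a library left out could not turn it. The direction is thus no further support for them. The medians of the 6 matrix and cell cycle lists were below 0 in all 108 values, the reported 6 included. Some settings, such as the replicate block and all 9 libraries, leave the group difference unchanged by construction, and library weights were not counted. The lists were also chosen with earlier results of these data known, so this count is no further support for them. The count of calls did not stay at 0. It was 1 with a filter of 5 FPKM, 1 with a replicate block and 1 with the replicate block and GC trend removed (LINC02154 each time), and 14 with the GC trend removed (11 higher, 3 lower). Leaving out 1 library gave 0 to 2 calls, with 1 without MK801 replicate 1 and 2 without replicate 3. Library quality weights gave 4770 calls (2512 higher, 2258 lower), but the weights did not converge and MK801 replicate 2 received 739.6 against 0.0733 and 0.0715, so these rest on 1 MK801 library. Whether the replicate numbers pair the groups is not known. Deviations of same-numbered libraries from their group means had correlations of -0.164, 0.0333 and 0.646. MK801 replicate 1 correlated best with invasive replicate 2, and MK801 replicate 3 with invasive replicate 3. The MK801 libraries also differed along GC content, so these correlations cannot tell whether same-numbered libraries were handled together. The median of fibrillar collagens was -0.68 with no filter, -1.30 with the GC trend removed, with or without the block, and -1.61 to -1.20 with 1 library left out. That of mitosis was -0.92 and -0.83 with pseudocounts of 0.1 and 0.5, -0.81 with a filter of 5 FPKM and -0.87 by voom, and the cause of the shifts was not tested. Leaving out 1 library, an alternative chosen after seeing the data for the next counts, gave 748 to 1833 genes above and 766 to 2029 below the invasive range in all MK801 libraries, the highest without MK801 replicate 1 (1211 and 1296 without replicate 3, 878 above without invasive replicate 2 and 980 below without invasive replicate 3). With the GC trend removed these were 983 and 1009. Leaving out a library can only raise such counts, as fewer libraries must then lie apart. MK801 replicate 2 by itself was above the range for 3222 to 4428, the highest without invasive replicate 2. Directions turned only for 4 genes near 0, none called: COL5A3 (0.23 with library weights, -0.37 to 0.12 with 1 library left out, above 0 without invasive replicate 2 or MK801 replicate 1), COL27A1 (0.0002 with quantile normalization, 0.12 with the GC trend removed, with or without the block, and with library weights, 0.17 by voom, -0.26 to 0.28 with 1 library left out, highest without MK801 replicate 1), HAS2 (0.0241 with quantile normalization, 0.23 by voom, -0.31 to 0.23 with 1 library left out, highest without MK801 replicate 1) and GRIN2D (0.0821 with library weights, -0.52 to 0.11 with 1 library left out, highest without invasive replicate 2). Values of short or scarce genes such as MIR6775 rest on few fragments.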
